A study of Mus musculus with 8 samples.

Results

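The genes described here are 9 components of bone morphogenetic protein (BMP) and transforming growth factor beta (TGF-beta) signalling that had a binding site of the transcription factor GATA2 in or near them in C3H10T1/2 cells: Bmp6, Bmpr1a, Smad3, Smad5, Smad7, Id1, Id3, Ltbp1 and Ltbp2. They are 9 of the 21631 protein-coding genes examined and 9 of 94 genes of a wider list of the pathway. They were chosen by the deposited peak positions: the centre of a C3H10T1/2 peak lay in each gene or within 10 kb of it. Having such a peak is thus how they were found and not a result. The choice was made on an earlier, shorter list of the pathway, and 4 further genes of the wider list meet the same rule.

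C3H10T1/2 is a mouse embryonic fibroblast line that can enter several mesenchymal lineages, and 3T3-L1 is a mouse fibroblast line committed to fat. Both came from ATCC and were used at passages 4 to 6, and the labels name no treatment or genotype. Each line has 2 libraries of chromatin immunoprecipitated with a GATA2 antibody and 2 input libraries without antibody, and the sequenced ChIP DNA was a pool from several immunoprecipitations. What could be analysed is 1 list of peak positions per line, with 1557 peaks for C3H10T1/2 and 2445 for 3T3-L1, in mm10 coordinates and with no height, score or read count. The depth behind the lists is unknown, there is no replicate of either list, and peak positions cannot check the identity of the cells, so the values below are descriptions without a test.

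BMP and TGF-beta are secreted ligands of one protein family. A ligand joins type I and type II receptor kinases, which phosphorylate receptor-activated Smad proteins. Smad1, Smad5 and Smad9 serve the BMP branch and Smad2 and Smad3 the TGF-beta and activin branch. These Smads enter the nucleus with Smad4 and there switch on targets, such as the Id genes in the BMP branch. Among the targets are also the inhibitory Smad6 and Smad7, which damp the signal. Latent TGF-beta binding proteins hold TGF-beta in the matrix until it is released. In mesenchymal precursor cells the pathway guides the choice between bone, cartilage, fat and muscle.

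Promoter windows are shown first for 3 of the 7 genes with an annotated start at hand, those whose C3H10T1/2 peak lay closest to a start of their own. Id1 and Smad7 had no start at hand. Each window runs from 250 bases before to 50 bases from an annotated start in RefSeq's GRCm38.p6, the mm10 assembly, and is written 5′ to 3′ on the strand of the gene. Capitals mark a GATA word, which is AGATAA or AGATAG or TGATAA or TGATAG on either strand. The Smad5 window (chr13:56703418-56703717, plus strand) belongs to the last of 3 annotated starts, the Id3 window is chr4:136143572-136143871 (plus strand) and the Ltbp2 window is chr12:84876442-84876741 (minus strand).
Smad5: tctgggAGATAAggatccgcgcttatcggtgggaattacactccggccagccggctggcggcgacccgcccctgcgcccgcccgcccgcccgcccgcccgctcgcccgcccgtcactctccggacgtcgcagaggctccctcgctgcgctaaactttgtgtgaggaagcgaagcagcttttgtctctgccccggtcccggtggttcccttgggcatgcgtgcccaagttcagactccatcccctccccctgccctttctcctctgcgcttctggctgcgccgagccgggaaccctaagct
Id3: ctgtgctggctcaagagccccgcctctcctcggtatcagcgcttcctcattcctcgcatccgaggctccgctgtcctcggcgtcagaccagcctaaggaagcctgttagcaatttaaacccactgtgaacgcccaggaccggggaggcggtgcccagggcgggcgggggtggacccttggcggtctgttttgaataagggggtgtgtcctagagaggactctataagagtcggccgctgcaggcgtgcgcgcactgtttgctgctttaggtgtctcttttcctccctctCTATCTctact
Ltbp2: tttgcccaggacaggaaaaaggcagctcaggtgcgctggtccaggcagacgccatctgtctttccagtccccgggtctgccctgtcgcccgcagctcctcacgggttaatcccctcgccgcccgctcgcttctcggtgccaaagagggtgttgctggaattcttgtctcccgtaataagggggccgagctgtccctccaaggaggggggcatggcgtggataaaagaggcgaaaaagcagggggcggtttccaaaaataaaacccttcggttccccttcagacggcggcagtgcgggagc

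None of the 10 promoter windows found for 7 of the 9 genes overlapped a peak of its gene. The share of all promoter windows that overlap a peak is not given here, so nothing is read from that count. The Smad5 window ended 145 bp before the C3H10T1/2 peak, the Ltbp2 window lay 181 bp from its peak and the Id3 window 3110 bp. The Smad5 window held AGATAA, beginning at position -244 counted from the start as 0 and lying 433 bp from the peak. The Id3 window held CTATCT, the reverse complement of AGATAG, at position 39 and 3399 bp from the peak. The Ltbp2 window held none of the words. In all, 2 of the 10 windows held a GATA word, against 29.8% of 32851 windows of the same length for 27025 genes. The palindrome GGCGCC, a GC-rich element that BMP-activated Smads bind, was in 3 of the 10 windows, those of Bmpr1a and of the first 2 starts of Smad5, which overlap each other, against 11.9% of all windows. The median GC content was 65% in the 10 windows and 52.7% in all windows. The sequence under the peaks themselves was not analysed here, so none of these matches is a bound site.

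The ligand and the receptor each had a single narrow peak of C3H10T1/2 near the transcription start. Bmp6 encodes a BMP ligand and spans 155 kb on chromosome 13 (38345716 to 38500314). Its peak, from 38350748 to 38350871, lay inside the gene 5.09 kb downstream of the start, or 3.29% of the way into it. The peak was 124 bp wide, and the gene was 790 kb from the nearest 3T3-L1 peak. Bmpr1a encodes a BMP type I receptor and spans 92.3 kb on chromosome 14 (34411061 to 34503336). Its peak of 136 bp, from 34508222 to 34508357, lay outside the gene, 5.74 kb upstream of its annotated start. A further protein-coding gene, 9230112D13Rik, was nearer to that peak, at 3.33 kb against 4.95 kb to the boundary of Bmpr1a. From Bmpr1a to the nearest 3T3-L1 peak it was 261 kb.

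Of the 3 Smad genes, Smad5 had its peak close to a start and Smad3 and Smad7 had theirs deeper in the gene. Smad5 (chromosome 13, 56703010 to 56742378) transmits BMP signals. Its peak, from 56703863 to 56704065, was 203 bp wide and centred 296 bp downstream of the last of its annotated starts. It was also within 100 kb of Tgfbi, a TGF-beta-induced matrix gene 64.6 kb away. From Smad5 to the nearest 3T3-L1 peak it was 1646 kb. Smad3 (chromosome 9, 63646766 to 63757994) transmits TGF-beta and activin signals. Its peak of 129 bp, from 63720992 to 63721120, lay 36.9 kb downstream of the start, or 33.2% of the way into the gene, and 3T3-L1 came no nearer to the gene than 1035 kb.

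Smad7 (chromosome 18, 75367365 to 75395935) encodes an inhibitory Smad that blocks type I receptors of both branches. Its peak of 159 bp, from 75377612 to 75377770, lay inside the gene, 10.3 kb from the lower boundary. A second C3H10T1/2 peak, from 75493472 to 75493648, lay 97.6 kb above the gene and inside Ctif, just within the 100 kb window. A 3T3-L1 peak from 75501136 to 75501309 lay 105 kb from Smad7, just outside that window and 7.49 kb from that second C3H10T1/2 peak, which it did not overlap. In both lines the peaks on that side thus lay far above Smad7, and the peak inside the gene was in C3H10T1/2 alone.

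The Id genes, which encode inhibitors of basic helix-loop-helix factors and are direct targets of BMP signalling, are the shortest of the 9, at 1.16 kb for Id1 and 1.57 kb for Id3. The C3H10T1/2 peak of Id1 (chromosome 2, 152736251 to 152737410) was the widest at the 9 genes, with 314 bp, and wider than or as wide as 92.1% of the whole list. It ran from 152741457 to 152741770, centred 4.2 kb above the higher boundary. Id1 also had 3T3-L1 peaks on both sides, 1 at 81.6 kb below the gene and 1 at 55.3 kb above it. The latter overlapped a C3H10T1/2 peak from 152792545 to 152792755 by 153 bp, and both lay inside Bcl2l1, which encodes an inhibitor of apoptosis. At Id3 (chromosome 4, 136143822 to 136145392) the C3H10T1/2 peak of 175 bp, from 136140287 to 136140461, was centred 3.45 kb upstream of the start, inside the long non-coding RNA gene Gm42329. The nearest 3T3-L1 peak to Id3 lay at 1540 kb. The rule asked for a C3H10T1/2 peak within 10 kb, so the short C3H10T1/2 distances of 4.2 and 3.45 kb describe the choice. The 3T3-L1 distances of 55.3 kb (Id1) and 1540 kb (Id3) differed widely between these 2 genes.

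Of the latent TGF-beta binding protein genes, Ltbp1 had a site in both lines and Ltbp2 in C3H10T1/2 alone. Ltbp1 binds the latent TGF-beta complex, while Ltbp2 is a family member that does not bind latent TGF-beta. Ltbp1 (chromosome 17, 75005480 to 75392512) is the longest of the 9 genes, at 387 kb, and the only one with a peak of both lines within 10 kb. Its C3H10T1/2 peak, from 75263659 to 75263833, and its 3T3-L1 peak, from 75263670 to 75263830, lay inside the gene 85 kb downstream of the nearer of its 2 annotated starts. The 3T3-L1 peak lay wholly within the C3H10T1/2 peak, with an overlap of 161 bp. A second 3T3-L1 peak lay 13.8 kb above the gene. The next C3H10T1/2 peak was 3009 kb away. Ltbp2 (chromosome 12, 84783212 to 84876558) had a C3H10T1/2 peak of 242 bp, from 84876923 to 84877164, centred 0.552 kb upstream of its start and inside the long non-coding RNA gene D030025P21Rik. At 2069 kb, Ltbp2 was the farthest of the 9 genes from a 3T3-L1 peak.

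**Figure D1:**
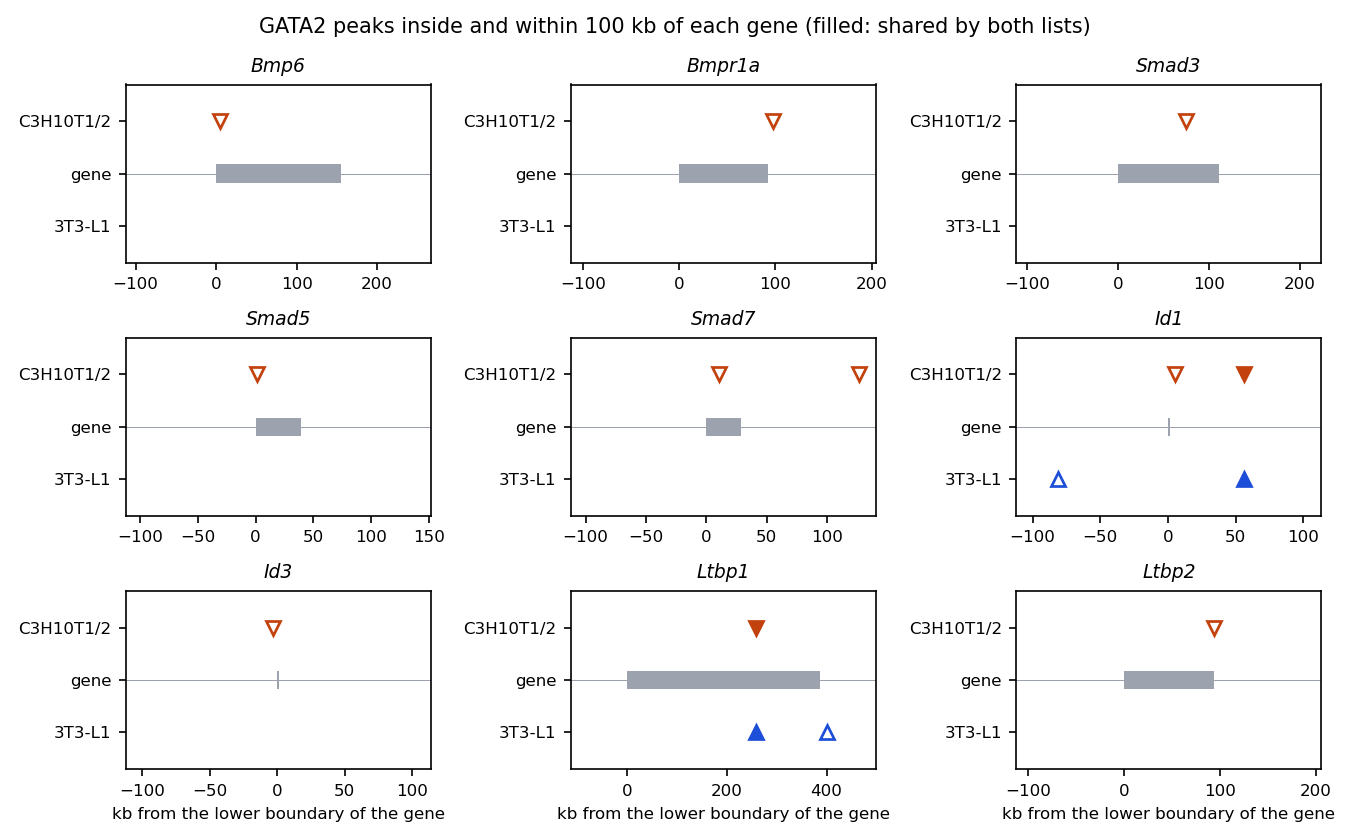
Peaks inside and within 100 kb of each of the 9 genes, by distance in kb from the gene's lower boundary (grey bar, gene; downward triangles, C3H10T1/2 peaks; upward triangles, 3T3-L1 peaks; filled, overlapping a peak of the other list). Each gene has 1 C3H10T1/2 peak in it or within 10 kb, and 3T3-L1 triangles appear at Id1 and Ltbp1 alone.

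Across the 9 genes, a C3H10T1/2 peak lay inside 5 (Bmp6, Smad3, Smad5, Smad7 and Ltbp1) and within 10 kb outside 4 (Bmpr1a, Id1, Id3 and Ltbp2). Over all protein-coding genes 3.64% had a C3H10T1/2 peak in the gene or within 10 kb and 2.59% had one inside. Nothing is read from that contrast, since it chose the genes. Each of the 9 had exactly 1 C3H10T1/2 peak in this window, as did 86.4% of the 788 genes with any. For the 4 genes with the peak outside, its centre lay at distances from 0.485 kb (Ltbp2) to 4.95 kb (Bmpr1a) from the gene. The first gene of the wider list beyond the limit was Eng, which encodes the co-receptor endoglin, with a C3H10T1/2 peak at 11.6 kb. For 8 of the 9 peaks no other protein-coding gene was nearer, the exception being that of Bmpr1a. The rule favours this, since 5 of the peaks lay inside the gene and the other 4 within 10 kb of it.

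Of the 7 genes with a RefSeq start in the table, 5 had the peak centre within 10 kb of a start of their own (Bmp6, Bmpr1a, Smad5, Id3 and Ltbp2). For Smad5 and Ltbp2 it was within 1 kb. Among the 1505 C3H10T1/2 peaks on the chromosomes that the start table covers, 21.8% lay within 10 kb of any start and 5.12% within 1 kb. The rule favours both shares at the 9 genes, because each of their peaks had to lie in a gene or within 10 kb of it, while the list also holds peaks far from any gene, so nothing is read from the contrast. Bmpr1a, Id3 and Ltbp2 had their peak upstream of the start, and Bmp6, Smad3, Smad5 and Ltbp1 had theirs downstream.

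A 3T3-L1 peak lay in 1 of the 9 genes or within 10 kb of it, Ltbp1 (11.1%), where 3.96% of all protein-coding genes had one. Within 100 kb it was 2 of the 9, Id1 and Ltbp1 (22.2%), against 13.9% of all genes. The lack of a 3T3-L1 peak near the other genes is therefore what most genes show. Genes with a C3H10T1/2 peak were often near 3T3-L1 peaks too. Of the 788 such genes, 364 (46.2%) also had a 3T3-L1 peak in the gene or within 10 kb, and 1 of the 9 did. Of all 13 genes of the wider list with a C3H10T1/2 peak there, 4 did: Ltbp1, Ski, Chrdl1 and Fstl1. The low count at the 9 thus depends on which genes of the pathway were chosen. A C3H10T1/2 peak with no 3T3-L1 peak in that window was found at 8 of the 9 genes, at 424 of the 788 and at 1.96% of all genes. Both were found at Ltbp1 and at 1.68% of all genes. A 3T3-L1 peak alone was found at 2.28% of all genes. It could not occur at the 9, since each had to have a C3H10T1/2 peak. For that reason nothing is read from these contrasts with all genes. The rule asked only for the C3H10T1/2 peak, but the genes were chosen with earlier results of these data known. The choice may thus have favoured the difference between the 9 and the 788 genes, which was not tested.

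**Figure D2:**
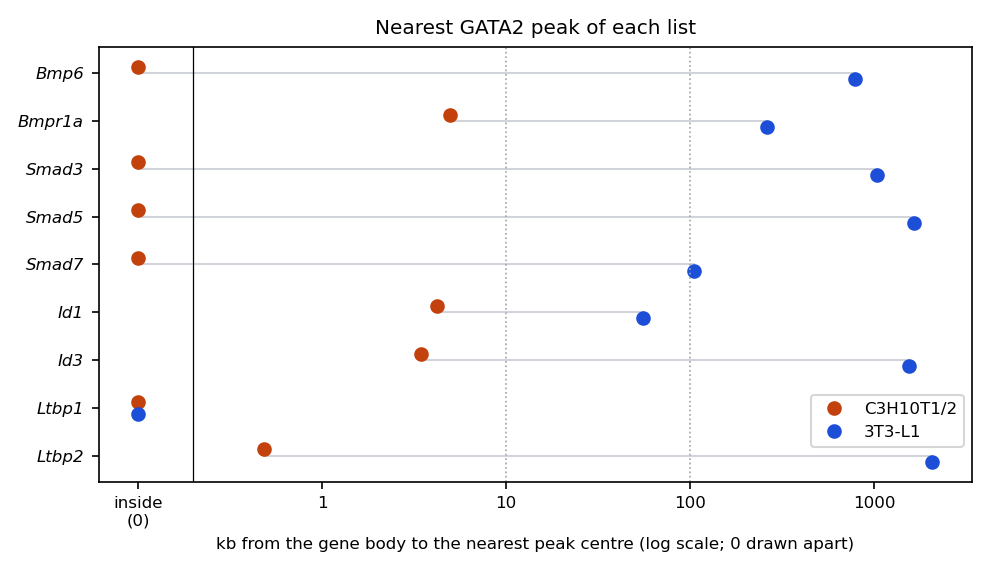
Distance in kb (log scale) from each gene body to the centre of the nearest peak of each list, with peaks inside the gene drawn at the left and dotted lines at 10 and 100 kb. C3H10T1/2 distances end at 4.95 kb, while 3T3-L1 distances run from inside the gene (Ltbp1) to 2069 kb (Ltbp2).

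The median distance of the 9 genes to the nearest 3T3-L1 peak was 790 kb, against 588 kb for all genes. Gaps from the C3H10T1/2 peaks of these genes to 3T3-L1 peaks are given as a description. The rule did not ask for a lack of 3T3-L1 peaks. The genes were chosen with earlier results of these data known, so the choice may have favoured longer gaps, and nothing is read from them. At Ltbp1 the peaks overlapped. Of the 8 that did not overlap a 3T3-L1 peak, 1 (that of Id1, at 50.8 kb) had a 3T3-L1 peak within 100 kb, against 35% of the 1017 C3H10T1/2 peaks without overlap in the whole list. For 4 of the 8 (Smad3, Smad5, Id3 and Ltbp2) the nearest 3T3-L1 peak was over 1 Mb away, against 16.4% of the 1017. The median of these gaps was 1025 kb at the 8 peaks and 220 kb over the 1017. Within the C3H10T1/2 list itself the nearest neighbouring peak was a median of 598 kb from the 9 peaks, with a range of 50.8 kb (Id1) to 3009 kb (Ltbp1), against 165 kb over all 1557. The peaks of Id1 and Smad7, at 50.8 and 116 kb, were nearer to a neighbour than that median of the list. The genes were chosen by these 9 peaks, so nothing is read from the contrast of 598 kb with 165 kb. In the ring from 10 to 100 kb, 2 of the 9 genes (22.2%), Smad7 and Id1, had a C3H10T1/2 peak, where 9.2% of all genes had one. A 3T3-L1 peak lay in that ring at 2 of the 9, Id1 and Ltbp1, against 10.8% of all genes.

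The peaks of the 9 genes ranged from among the narrowest of the list to the wide peak of Id1. Their median width was 175 bp, with a range of 124 to 314 bp, against 184 bp over the C3H10T1/2 list. At Smad5, Id1 and Ltbp2 the peak was at least as wide as the median of the list, and at the other 6 genes it was narrower. Bmp6 had the most frequent width of the list, 124 bp, which 98 of the 1557 peaks shared, where the next most frequent width was found 20 times, and 3.28% of peaks were narrower. With only peaks of at least the median width, 3 of the 9 genes kept a C3H10T1/2 peak within 10 kb or 100 kb. One of the 9 peaks (11.1%) overlapped a 3T3-L1 peak, against 34.7% of the C3H10T1/2 list. The choice of the genes may have favoured this contrast, so nothing is read from it.

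**Figure D3:**
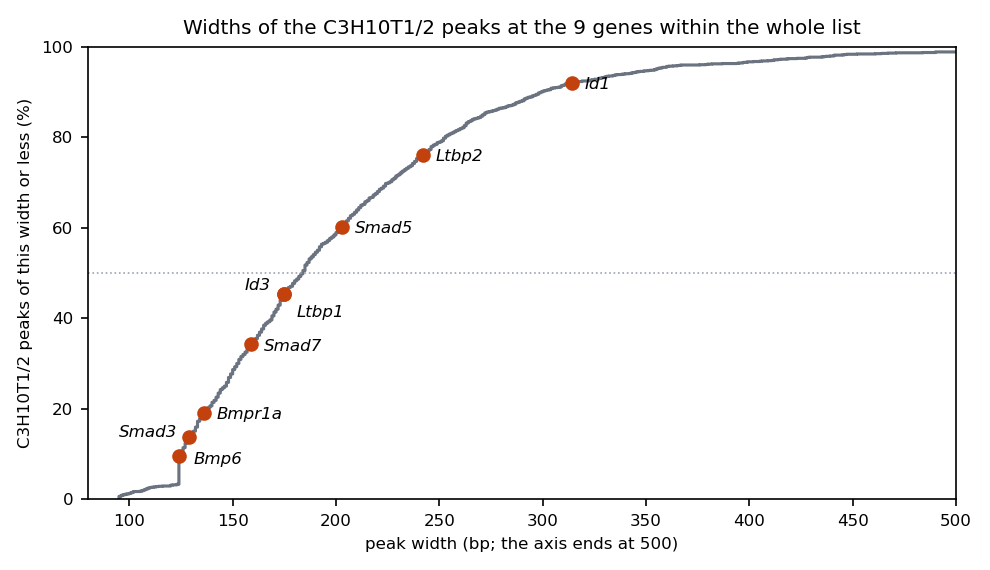
Width in bp of the C3H10T1/2 peak at each of the 9 genes (points) on the cumulative share of all 1557 C3H10T1/2 peaks (line; the dotted line marks 50%). Smad5, Ltbp2 and Id1 lie above the median of 184 bp, and Bmp6 lies on the step at 124 bp.

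The share of genes with a peak rose with gene length. The 9 genes had a median length of 92.3 kb against 17.3 kb for all genes, and 7 of the 9 were longer than that median. Over all genes the share with a C3H10T1/2 peak in the gene or within 10 kb rose from 0.904% of those up to 10 kb long, the class of Id1 and Id3, to 2.62% of those of 10 to 50 kb (Smad5 and Smad7), 6.63% of those of 50 to 150 kb (Bmpr1a, Smad3 and Ltbp2) and 17.3% of longer genes (Bmp6 and Ltbp1). The 3T3-L1 shares in the same classes were 1.07%, 2.79%, 6.66% and 20%. Of the genes with a C3H10T1/2 peak, 39.8% to 51.4% in each class also had one of 3T3-L1. The part of gene length in the choice of the 9 genes was not tested.

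**Figure D4:**
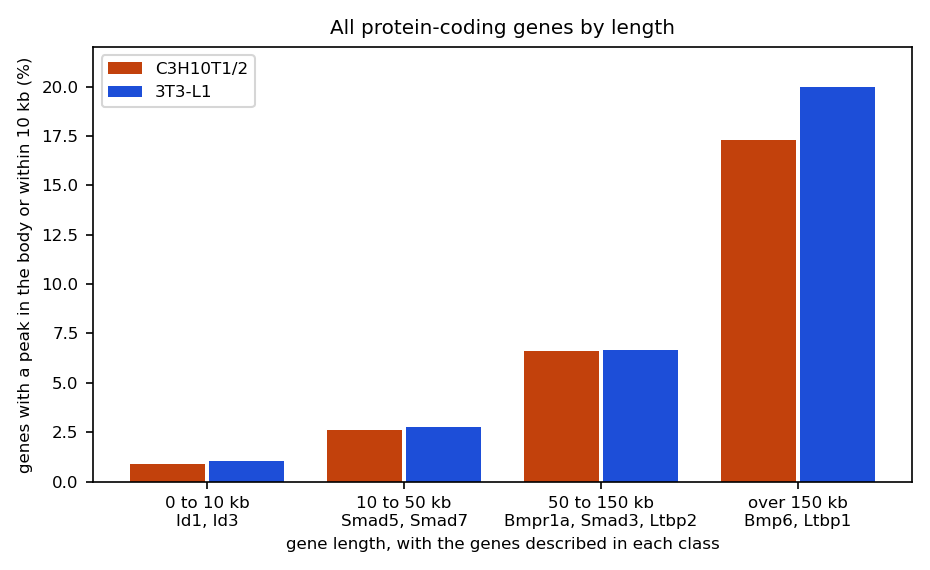
Share of all protein-coding genes, in percent, with a peak of each list in the gene or within 10 kb, in 4 classes of gene length, with the genes described here named under their class. The C3H10T1/2 share is 0.904% in the shortest class and 17.3% in the longest.

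In the whole list of 94 genes, 13 (13.8%) had a C3H10T1/2 peak in the gene or within 10 kb and 22 (23.4%) had one within 100 kb, the 9 chosen genes included. The shares in the rest of the list are lowered by taking those 9 out. Of the 85 other genes of the wider list, 4 (4.71%) had a C3H10T1/2 peak in the gene or within 10 kb, against 3.64% of all genes, and 3 (3.53%) had a 3T3-L1 peak, against 3.96%. The 4 were Smurf2, which encodes a ubiquitin ligase that acts on Smads and receptors, Ski, which encodes a repressor of Smad transcription, and the secreted proteins Chrdl1, a BMP antagonist, and Fstl1, a follistatin-like protein. Ski, Chrdl1 and Fstl1 also had a 3T3-L1 peak in this window. Smurf2 alone of the 85 (1.18%) thus had a C3H10T1/2 peak and none of 3T3-L1 there, against 1.96% of all genes. At Ski (chromosome 4) the peaks ran from 155173596 to 155173853 in C3H10T1/2 and from 155173587 to 155173789 in 3T3-L1 and overlapped. At Fstl1 (chromosome 16) they also overlapped, from 37790034 to 37790218 and from 37790039 to 37790133. Chrdl1 (chromosome X) had 1 C3H10T1/2 peak and 2 of 3T3-L1 inside it, and none of these overlapped. The Smurf2 peak, from 106846246 to 106846372 on chromosome 11, was 127 bp wide.

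Within 100 kb, 13 of the 85 (15.3%) had a C3H10T1/2 peak and 13 (15.3%) a 3T3-L1 peak, against 12.1% and 13.9% of all genes. Tgfbi counts among the 13 for C3H10T1/2 only through the peak inside Smad5, by which Smad5 was chosen. Both lists had a peak at 7 of the 85, C3H10T1/2 alone at 6 and 3T3-L1 alone at 6, and 66 (77.6%) had neither. The shares of all genes for this split are not given here, so nothing is read from it. By role, 1 of the 15 other BMP and GDF ligand genes had a C3H10T1/2 peak within 100 kb (Bmp8a) and 1 a 3T3-L1 peak (Bmp10). Bmp2 and Bmp4, ligands that induce bone, had none in either line. Of the 13 TGF-beta, activin and nodal ligand genes, Tgfb1 had a 3T3-L1 peak at 36.9 kb and the other 12 had none. Of the 16 other receptor and co-receptor genes, Eng and Hjv had peaks of both lines, Acvr2a had peaks of 3T3-L1, and 13, among them Bmpr2, Tgfbr1 and Tgfbr2, had none.

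The following genes of the same families as the 9 were picked after their values were seen, and lacking a peak within 100 kb is what most genes show (12.1% of all genes had one of C3H10T1/2 and 13.9% one of 3T3-L1). Smad1, Smad2 and Smad4 had none in either line, and Smad9, which serves the BMP branch with Smad5, had a 3T3-L1 peak at 82.2 kb and none of C3H10T1/2. Smad6, the inhibitory partner of Smad7, had none in either line. Id2 and Id4 had none, nor had the BMP-responsive homeobox genes Msx1 and Msx2 or the TGF-beta target Ccn2. Ltbp3, Ltbp4 and Fbn1 had none, while Fbn2, which encodes a microfibril protein, had a C3H10T1/2 peak at 26.8 kb and Thbs1, whose product can release latent TGF-beta, a 3T3-L1 peak at 72.5 kb. Of the 7 other genes among the inhibitory Smads and intracellular inhibitors, 4 had a C3H10T1/2 peak within 100 kb (Smurf2, Ski, Skil and Tgif1) and 2 a 3T3-L1 peak (Ski and Tgif1). Among the 16 secreted antagonists each line had 4, and Nog, Chrd, Grem1 and Fst had none.

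**Figure D5:**
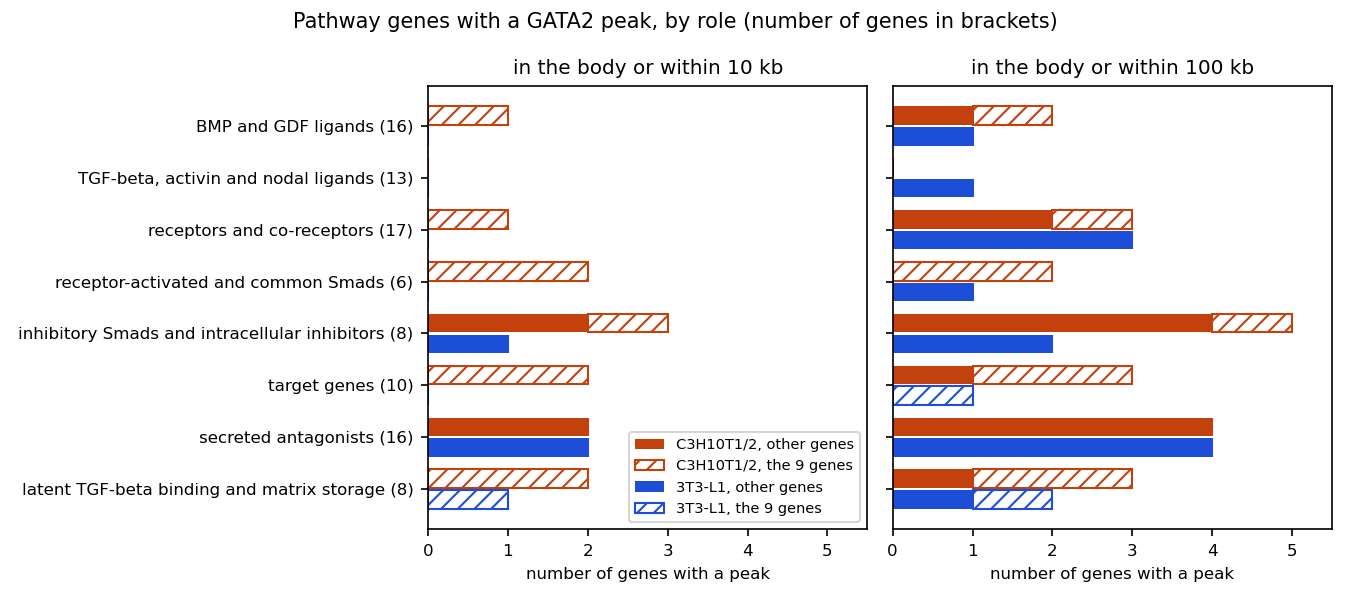
Number of pathway genes with a peak of each list in the gene or within 10 kb (left) and 100 kb (right), by role, with the number of genes of each role in brackets (hatched, the 9 genes; solid, other genes). The solid parts add up to 4 genes for C3H10T1/2 and 3 for 3T3-L1 on the left and to 13 and 13 on the right.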

How the data were processed

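GATA2-bound chromatin was sequenced from C3H10T1/2 and 3T3-L1 cells, with 2 ChIP and 2 input libraries per line. The authors deposited 1 peak list per line holding chromosome, start and end, positions in bp with no other value. Per the submitters' processing notes the build was mm10 and the tools included CASAVA 1.8, Bowtie2, SAMtools, bedtools and MACS2. How libraries were combined, which threshold was used and what was removed is not stated in the labels used here, and these choices set which weak sites and what widths a list holds. Read depth is unknown.

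Starts were read as counted from 0 and are printed counted from 1. Genes came from the RefSeq table of GRCm38.p6 (21631 protein-coding genes on chromosomes 1 to 19 and X), and all 94 pathway symbols matched. The distance of a peak is that of its centre from the gene body, 0 inside. Peaks overlapping by at least 1 bp were called shared. Strand and starts came from the RefSeq promoter table, where 7 of the 9 genes matched. Gaps between peaks run from edge to edge. Counts were made with Python 3.11.15 and NumPy 2.4.6, and the counting was checked on constructed peaks.

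The 9 genes, the pathway list and the windows were chosen with earlier results of these data known. Named were the 9 genes, genes of the wider list with a peak within 10 kb or, by role, 100 kb, the nearest other genes, and 5 genes outside the pathway with the same counts and the closest length. Further names (relatives without a peak) were chosen after their values were seen. No test was run, because each line has 1 list and the genes were chosen by their peaks. Alternatives were other windows, the peak's edge, wider peaks alone, dense blocks left out, the nearest gene alone and other definitions of sharing.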

Additional observations from a re-analysis of the deposited data

How the results depend on the processing

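No paired analysis was possible because each line has a single peak list, so replicate numbers carry no values, and for the same reason no replicate could be left out. Over 9 settings, 49 of the 58 alternative values of the 9 results stayed within 1.5 times the main count (the median width: unchanged). The remaining 9 did not. Some values could not move, so the 49 do not measure stability. No dense block lay within 100 kb of the 9 genes, and wider windows cannot lower a count. The window of 5 kb kept all 9 genes because their C3H10T1/2 peaks lay within 4.95 kb. With the narrower part of each list left out (peaks below its median width), 3 in place of 9 genes had a C3H10T1/2 peak within 10 kb and 3 in place of 9 within 100 kb, 0 in place of 1 of the C3H10T1/2 peaks within 10 kb was shared and 1 in place of 2 of those within 100 kb, and the median width was 242 bp in place of 175 bp. With windows of 5 and 50 kb, a 3T3-L1 peak lay in the wide window of 1 gene in place of 2 and 1 in place of 2 C3H10T1/2 peaks there was shared. With windows of 20 and 200 kb, the narrow window of 6 in place of 3 other pathway genes held a 3T3-L1 peak, against 5 in place of 4 for C3H10T1/2. Wider windows and fewer peaks change the counts of any set of genes, and shares of all genes at the changed settings are not given here. Where a peak counted for its nearest gene only, 8 of the 9 genes kept a C3H10T1/2 peak, without Bmpr1a, and 1 in place of 2 genes had a 3T3-L1 peak within 100 kb. The depth behind the lists is unknown, so it cannot be said which of the narrower peaks it limits.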

Other observations

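Other genes had the same counts as 6 of the 9 (Bmp6, Bmpr1a, Smad3, Smad5, Id3 and Ltbp2), namely 1 C3H10T1/2 peak within 10 kb, no further one within 100 kb and no 3T3-L1 peak within 100 kb. Outside the pathway list 267 genes (1.23% of all) had these counts over the 2 cell lines. The 5 closest to the 92.8 kb median length of the 6 genes were Dnmbp (93.4 kb), Itpkb (94.4 kb), Ly75 (91.2 kb), Pcdhga10 (94.9 kb) and Med13 (90.6 kb).

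The C3H10T1/2 peaks of Id3 and Ltbp2 lay in long non-coding RNA genes, 2 of the 9 peaks, as did 196 of the 1557 peaks of the list (12.6%). Peaks of dense blocks (runs of at least 8 peaks of a list with gaps of at most 20000 bp, 20 peaks in C3H10T1/2 and 454 in 3T3-L1) were found within 100 kb of 0 of the 9 genes. The share of all genes near such blocks is not given here, so nothing is read from that count.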
